A study of Homo sapiens with 4 samples.

Results

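Interferon genes, their receptors and the genes they induce were followed in OCI-Ly10 cells given siRNA against MYC, a factor that promotes growth and cell division in lymphoma. OCI-Ly10 is a human cell line from a diffuse large B-cell lymphoma, and belongs to the activated B-cell-like class of that disease. The set held 38 of the 4454 named genes with a value on at least 2 of the 4 arrays. Its members were chosen by symbol: names starting with IFI, IFN, ISG, OAS or GBP and a number, and members of other interferon families such as MX and IRF, with BST2, EIF2AK2, ADAR, RSAD2 and USP18. IRF4 was left out by rule. IRF5, IRF7, IFIH1, OASL, RSAD2, USP18 and IFI27 were not analysed here. The 38 genes were represented by 110 array features (spotted probes), and 35 of them had a value on all 4 arrays. IFI44 and IFNB1 had values on 3 arrays and IFNW1 on 2.

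All cells of the study were electroporated. On each array, RNA of cells given 4 uM of a siRNA pool against MYC (Cy5 dye) was hybridised together with RNA of control cells (Cy3 dye). The control cells on 2 arrays had been electroporated in buffer without siRNA and were taken at 24 h and 6 h. The control cells on the other 2 arrays had been given 4 uM of a nonspecific siRNA against Renilla luciferase and were taken at 24 h and 8 h. No combination had more than 1 array. The values are the authors' ratios, read as log2 of MYC siRNA over control. That direction is likely rather than stated, since it rests on the dyes in the labels and on MYC itself lying below 0. MYC averaged -0.89 ± 0.39 (SD, n = 4), with values of -1.03 and -1.26 at 24 h and 6 h against no siRNA, and -0.35 and -0.94 at 24 h and 8 h against control siRNA. The dyes were swapped on 0 arrays, so a dye bias and a response cannot be told apart. With 1 pool, loss of MYC and other effects of the pool cannot be told apart either. The labels do not say that the cultures were separate, and the p-values reflect how much the arrays differed, part of which may be technical.

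Type I interferons signal through the receptor IFNAR1 and IFNAR2, type II interferon (IFNG) through IFNGR1 and IFNGR2, and type III interferons through IFNLR1 with a subunit of another cytokine's receptor. The type I and III receptors activate a complex that contains IRF9, which binds interferon-stimulated response elements (ISRE) near the start of genes such as ISG15, MX1 and the IFIT and OAS families. Many of the induced proteins sense, bind or degrade viral RNA. IFNG acts mostly through a different element, the gamma-activated site (GAS).

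The sequences below show the start regions of the genes that the results turn on. RefSeq start regions (GRCh38.p14, 250 bases before to 50 after the start of the transcript) were at hand for 30 of the 38 members and were searched on both strands. The search used the letters GAAANNGAAA, a pair of half-sites of the ISRE. They were found in 15 of the 30 members (50.0%), against 4.38% of all 27305 genes with such a region. Many members are named for their induction by interferon, so this contrast describes the chosen genes and rests on no array value. The first group holds 7 genes that passed the test for higher ratios, together with IFI44, the member with the highest mean. Capitals mark the match, or its reverse complement where the match lies on the other strand, and every sequence is written 5′ to 3′ along the strand of the gene.
IFI44 (chr1:78649761-78649790, plus strand): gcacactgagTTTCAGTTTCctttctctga
IFI6 (chr1:27672266-27672295, minus strand): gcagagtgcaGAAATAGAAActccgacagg
IFIT1 (chr10:89392510-89392539, plus strand): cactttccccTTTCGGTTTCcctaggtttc
ISG15 (chr1:1013380-1013409, plus strand): tcggGAAAGGGAAACCGAAActgaagccaa
MX1 (chr21:41420559-41420588, plus strand): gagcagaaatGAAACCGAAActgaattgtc
IFI44L (chr1:78620365-78620394, plus strand): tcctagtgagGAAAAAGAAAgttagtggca
ISG20 (chr15:88638937-88638966, plus strand): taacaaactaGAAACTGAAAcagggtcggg
GBP1 (chr1:89065316-89065345, minus strand): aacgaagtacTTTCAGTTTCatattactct

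A second group holds genes with the same letters whose mean ratios lay near 0 and did not pass the test. Not shown are OAS3, IFIT3, EIF2AK2 and IFITM3. They also hold the letters and did not pass, with mean ratios of 0.28, 0.26, 0.19 and 0.15.
IFITM1 (chr11:314024-314053, plus strand): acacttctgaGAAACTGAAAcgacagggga
BST2 (chr19:17405735-17405764, minus strand): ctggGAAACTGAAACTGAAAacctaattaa
IFIT5 (chr10:89414554-89414583, plus strand): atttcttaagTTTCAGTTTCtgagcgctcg

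ISG15 and BST2 each hold 2 overlapping matches, so their capitals run longer. The match shown for MX1 begins 11 bases after the start and that of IFI6 at -93. Among the 9 members that passed for higher ratios, 7 held the letters, and OAS1 and IRF9 did not within this window. Among the 19 other tested members with a start region, 7 held them. Those 19 include the ligand IFNG, the receptor genes IFNAR1, IFNGR1, IFNGR2 and IFNLR1, and ISG20L2. The 2 groups thus differ in type of gene, and a link between the letters and the ratios was not tested. The GAS letters TTCNNNGAA were found in 10 of the 30 members (33.3%), against 9.38% of all genes. They were in 3 of the 9 (MX1, OAS1 and IRF9) and in 6 of the 19 others. The E-box CACGTG, the element that MYC binds, was found in 5 of the 30 (16.7%), against 8.78% of all genes. It was in 2 of the 9 and in 3 of the 19 others. A match is a description of the letters and shows no binding.

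**Figure D1:**
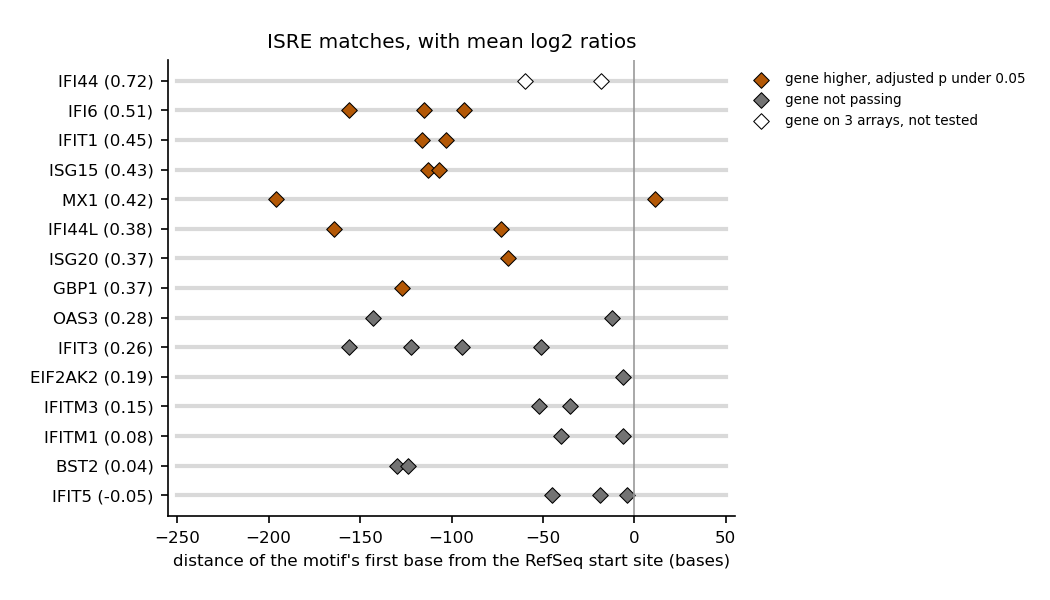
Position of each ISRE match (diamonds) in the RefSeq start regions of the 15 genes that hold one. The horizontal axis is the distance in bases of the match's first base from the start of the transcript, and the number beside each gene is its mean log2 ratio, MYC siRNA over control. A gene with several start sites can have a match counted from each. Genes that passed the test (filled orange) and genes that did not (grey), such as IFIT5 at -0.05, both hold matches.

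In cells with MYC siRNA, 9 of the 35 fully measured members rose and 1 fell, while 25 did not pass the test. The genes that rose were IFI6, IFIT1, ISG15, MX1, OAS1, IFI44L, ISG20, GBP1 and IRF9, with mean log2 ratios between 0.32 and 0.51, or 125% to 143% of control. All 9 lay above 0 on each of the 4 arrays. Over all 6798 rows complete on 4 arrays (genes, and features without a gene name), 5.56% were called higher and 10.2% lower (limma, Benjamini-Hochberg adjusted p under 0.05 over all rows). The median of the 35 members was 0.14, against -0.003 over all rows. Of the 35 members, 15 lay above 0 on all 4 arrays (19.4% of all rows), 2 lay below 0 on all 4 (23.3% of all rows), and 18 had both signs. The member medians on the single arrays were 0.14 and 0.12 at 24 h and 6 h against no siRNA, and 0.09 and 0.21 at 24 h and 8 h against control siRNA. The calls rest on all 4 arrays together. With 1 array against no siRNA left out, members called higher numbered 3 (24 h left out) and 0 (6 h left out). With 1 array against control siRNA left out, they numbered 0 (24 h left out) and 2 (8 h left out), and 0 were called lower in each case. Over all rows, 234, 0, 4 and 441 were called in the same order, and each of the 10 members kept its sign.

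**Figure D2:**
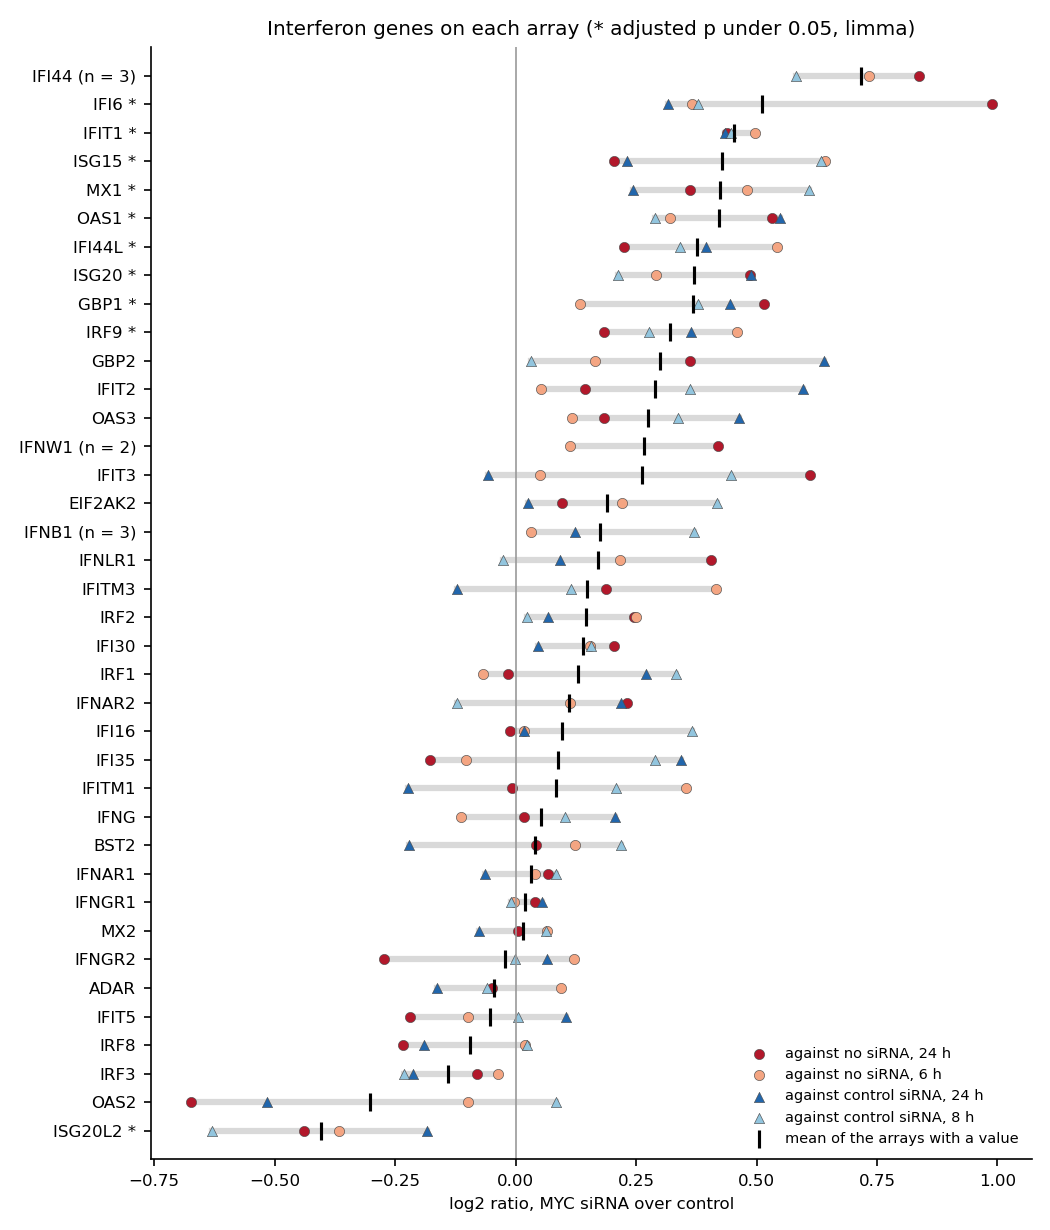
Log2 ratios (MYC siRNA over control) of the 38 interferon genes on each array, ordered by their mean (black bar). Circles are arrays against no siRNA, triangles those against control siRNA, and grey lines span the lowest to the highest array. Starred genes passed the test. The 9 starred genes at the top lie right of 0 on all 4 arrays, while the 5 receptor genes straddle 0.

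Among the ligands, no rise or fall was called. IFNG, the type II interferon made by T and NK cells, was the one ligand on all 4 arrays, with log2 ratios of 0.02 and -0.11 at 24 h and 6 h against no siRNA, and 0.21 and 0.10 at 24 h and 8 h against control siRNA (mean 0.05, adjusted p = 0.695 in limma). IFNB1, the type I interferon that many cells make on infection, had 0.03 at 6 h against no siRNA, and 0.12 and 0.37 at 24 h and 8 h against control siRNA. IFNW1, another type I interferon, had 0.42 and 0.11 at 24 h and 6 h against no siRNA. All values of these 2 type I ligands were above 0. In a fit of rows with a value on at least 2 arrays, their adjusted p in limma was 0.312 for IFNB1 and 0.242 for IFNW1. A ratio carries no level, so whether the cells made any of these transcripts is not shown.

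The 5 receptor genes gave mean ratios near 0, and 0 of the 5 passed the test, also at an unadjusted p under 0.05. Their median was 0.03, and the means ran from -0.02 for IFNGR2 to 0.17 for IFNLR1, the ligand-specific chain of the type III receptor. IFNLR1 had 0.41 and 0.22 at 24 h and 6 h against no siRNA, and 0.09 and -0.03 at 24 h and 8 h against control siRNA. Its 2 values against no siRNA were the higher ones. IFNAR1 averaged 0.03 ± 0.07 and IFNGR1 0.02 ± 0.03 (SD, n = 4 each). IFNAR2, measured by 1 feature, averaged 0.11 ± 0.16 (SD, n = 4).

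In 3 receptor genes, features of the same gene disagreed. IFNGR1 was covered by 3 complete features, of which 1 averaged -0.58 (adjusted p = 0.012) and another 0.43 (adjusted p = 0.0219; limma over single features). On the feature below 0, the ratios were -0.91 and -0.44 at 24 h and 6 h against no siRNA, and -0.54 and -0.45 at 24 h and 8 h against control siRNA. On the feature above 0 they were 0.73 and 0.31 against no siRNA, and 0.36 and 0.35 against control siRNA, in the same order of times. The 2 features thus lay on opposite sides of 0 on every array. IFNGR2 had 5 complete features, 1 at -0.37 (adjusted p = 0.0386) and 1 at 0.35 (adjusted p = 0.029). The features of IFNAR1 spanned means from -0.46 to 0.58, the ends measured on fewer than 4 arrays. Of its 3 complete features, 1 averaged -0.40 and was called lower (adjusted p = 0.0301 in limma over single features). That feature had -0.63 and -0.27 at 24 h and 6 h against no siRNA, and -0.53 and -0.17 at 24 h and 8 h against control siRNA. The other complete features of IFNAR1 averaged 0.13 and 0.15 and did not pass. These are all the features that carry each gene's name in the array's annotation, and which of them measures the transcript was not tested.

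Of the 5 transcription factors, IRF9 rose and IRF1, IRF2, IRF3 and IRF8 did not pass. IRF9, a DNA-binding part of the complex that type I interferons activate, had log2 ratios of 0.18 and 0.46 at 24 h and 6 h against no siRNA, and 0.36 and 0.28 at 24 h and 8 h against control siRNA. All 4 values were above 0 and the 2 kinds of control overlapped. Its mean was 0.32 ± 0.12 (SD, n = 4; adjusted p = 0.039 in limma). The call was lost when rows with a value on at least 2 arrays were tested (adjusted p = 0.0548). Of its 3 features, 2 were called higher and 1 averaged -0.01. IRF2, which competes with IRF1 at the same sites, had 0.25 and 0.25 against no siRNA and 0.07 and 0.02 against control siRNA, at 24 h and the early time in each case. These are averages of 3 features with means from -0.16 to 0.49. Against no siRNA the features of IRF2 had -0.52, 0.41 and 0.85 at 24 h, and 0.10, -0.18 and 0.83 at 6 h. IRF1, an activator that IFNG induces, had -0.02 and -0.07 against no siRNA and 0.27 and 0.33 against control siRNA, in that time order. Its values against control siRNA were the higher ones. However, 1 of its 2 features had values only at 24 h, so its 24 h and early values average different features. The complete feature had -0.33 and -0.07 against no siRNA and 0.155 and 0.33 against control siRNA, with a mean of 0.02. IRF8, a factor of germinal centre B cells and myeloid cells, averaged -0.10 ± 0.14, and IRF3, the factor that nucleic acid sensors activate, -0.14 ± 0.10 (SD, n = 4 each). IRF3 lay below 0 on all 4 arrays, with 2 of its 6 features called lower. Its feature means had both signs and ran from -0.41 to 0.12.

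Among 6 sensors and enzymes of double-stranded RNA, OAS1 rose and the other 5 did not pass. The OAS proteins make a small messenger molecule that activates RNase L, which cuts RNA. OAS1 had log2 ratios of 0.53 and 0.32 at 24 h and 6 h against no siRNA, and 0.55 and 0.29 at 24 h and 8 h against control siRNA. Its mean was 0.42 ± 0.14 (SD, n = 4; adjusted p = 0.0218 in limma), and all 21 values of its 6 features were above 0. OAS3 had 0.18 and 0.12 against no siRNA and 0.46 and 0.34 against control siRNA, at 24 h and the early time in each case. All 4 values of OAS3 were above 0, its values against control siRNA were the higher ones, and its mean of 0.28 did not pass (adjusted p = 0.0689). OAS2 differed from both. It had -0.67 and -0.10 at 24 h and 6 h against no siRNA, and -0.52 and 0.08 at 24 h and 8 h against control siRNA. The 24 h values were the low ones with either control, and its mean of -0.30 did not pass (adjusted p = 0.129). However, 1 of its 2 features had no value at 6 h against no siRNA, so its values average different features. The complete feature of OAS2 had -0.96 and -0.10 at 24 h and 6 h against no siRNA, and -0.645 and -0.145 at 24 h and 8 h against control siRNA. Its mean of -0.46 was called lower (adjusted p = 0.0436 in limma over single features). EIF2AK2, the kinase PKR, which halts translation on binding double-stranded RNA, averaged 0.19 ± 0.17. ADAR, which edits adenosine in double-stranded RNA, averaged -0.04 ± 0.11, and IFI16, a DNA sensor, 0.10 ± 0.18 (SD, n = 4 each).

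ISG15, a ubiquitin-like protein that is joined to other proteins after interferon, rose. Its log2 ratios were 0.21 and 0.64 at 24 h and 6 h against no siRNA, and 0.23 and 0.63 at 24 h and 8 h against control siRNA. The early values were the high ones, and at each time the kinds of control gave nearly the same value. Its mean was 0.43 ± 0.24 (SD, n = 4; adjusted p = 0.0304 in limma). Each of its 3 features was called higher by itself, with means from 0.36 to 0.54.

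Of the 11 antiviral effectors and genes of similar name, MX1, IFIT1 and ISG20 rose, ISG20L2 fell, and 7 did not pass. IFIT1, which binds viral RNA that lacks the host's cap methylation, had 0.44 and 0.50 at 24 h and 6 h against no siRNA, and 0.43 and 0.45 at 24 h and 8 h against control siRNA. These averages of its 2 features had a mean of 0.45 ± 0.03 (SD, n = 4; adjusted p = 0.0173 in limma), but the features themselves parted by kind of control. One feature (mean 0.68, called higher) had 0.97 and 0.84 at 24 h and 6 h against no siRNA, and 0.43 and 0.47 at 24 h and 8 h against control siRNA. The other (mean 0.23, not passing) had -0.10 and 0.15 against no siRNA, and 0.43 and 0.43 against control siRNA, in the same order of times. The near-equal averages, their small SD and the adjusted p therefore do not show a steady response at both features. MX1, a GTPase that blocks influenza and other viruses, had 0.36 and 0.48 against no siRNA and 0.24 and 0.61 against control siRNA, at 24 h and the early time in each case. The early values of MX1 were the higher ones with either control, and its mean was 0.42 ± 0.16 (SD, n = 4; adjusted p = 0.0232). However, 2 of its 3 features had no value at 24 h against no siRNA, so that value rests on 1 feature. The complete feature of MX1 had 0.36 and 0.57 against no siRNA and 0.27 and 0.58 against control siRNA, in the same order of times. ISG20, an exonuclease, had 0.49 and 0.29 against no siRNA and 0.49 and 0.21 against control siRNA, in the same order of times. Here the 24 h values were the higher ones, and the mean was 0.37 ± 0.14 (SD, n = 4; adjusted p = 0.029).

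The other IFIT members did not pass. IFIT2 had 0.14 and 0.05 at 24 h and 6 h against no siRNA, and 0.60 and 0.36 at 24 h and 8 h against control siRNA. Its kinds of control did not overlap, and its mean of 0.29 did not pass (adjusted p = 0.0887 in limma). IFIT3, measured by 1 feature, had 0.61 and 0.05 against no siRNA and -0.06 and 0.45 against control siRNA, in the same order of times. IFIT3 thus varied with neither control nor time in 1 direction. IFIT5 averaged -0.05 ± 0.14. The membrane proteins IFITM1 and IFITM3, which hinder virus entry, averaged 0.08 ± 0.25 and 0.15 ± 0.22, BST2, which tethers virus particles to the cell, 0.04 ± 0.19, and MX2, which acts on HIV, 0.01 ± 0.07 (SD, n = 4 each). ISG20L2, a nucleolar exonuclease of ribosomal RNA that resembles ISG20 in name, had -0.44 and -0.37 against no siRNA and -0.18 and -0.63 against control siRNA, in the same order of times. All 4 values of ISG20L2 lay below 0, with a mean of -0.40 ± 0.18, or 75.6% of control (SD, n = 4; adjusted p = 0.0276).

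Of the 2 guanylate binding proteins, large GTPases strongly induced by IFNG, GBP1 rose and GBP2 did not pass. GBP1 had 0.52 and 0.13 at 24 h and 6 h against no siRNA, and 0.45 and 0.38 at 24 h and 8 h against control siRNA (mean 0.37 ± 0.17; SD, n = 4; adjusted p = 0.0321 in limma). All 14 values of its 4 features were above 0. GBP2 had 0.36 and 0.16 against no siRNA and 0.64 and 0.03 against control siRNA, in the same order of times. Both genes had their higher values at 24 h with either control, and GBP2 with a mean of 0.30 did not pass (adjusted p = 0.0888).

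Of the 4 other inducible genes that were tested, IFI6 and IFI44L rose and IFI30 and IFI35 did not pass. IFI6, a membrane protein of the endoplasmic reticulum that blocks flavivirus replication, had 0.99 and 0.37 at 24 h and 6 h against no siRNA, and 0.32 and 0.38 at 24 h and 8 h against control siRNA. Its 24 h value against no siRNA stood above the other 3, and its mean was 0.51 ± 0.32 (SD, n = 4; adjusted p = 0.0276 in limma). Without that array the mean was 0.35. Of the 2 features of IFI6, 1 was called higher (mean 0.72) and 1 did not pass (mean 0.31). The feature that did not pass had 0.01 and 0.03 at 24 h and 8 h against control siRNA. IFI44L had 0.23 and 0.54 against no siRNA and 0.40 and 0.34 against control siRNA, in the same order of times, with a mean of 0.38 ± 0.13 (SD, n = 4; adjusted p = 0.0276). IFI44, its neighbour on chromosome 1, was measured by 1 feature, with 0.84 and 0.73 at 24 h and 6 h against no siRNA and 0.58 at 8 h against control siRNA. Its mean of 0.72 ± 0.13 (SD, n = 3) was above that of any other member, with an adjusted p of 0.024 in limma's fit of rows with a value on at least 2 arrays. IFI30, a lysosomal thiol reductase of antigen presentation, averaged 0.14 ± 0.07 (SD, n = 4).

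The 2 kinds of control differ in whether siRNA was also present in the control cells, which bears on any response to siRNA as such. Kind of control also goes with the range of experiment identifiers, so kind and experiment cannot be told apart. The difference between kinds (no siRNA minus control siRNA) was tested as 1 term of a limma model beside time. Of the 35 members, 0 passed, against 0.0883% of all rows, and the smallest adjusted p among them was 0.366. At an unadjusted p under 0.05, 1 of the 35 members stood out, against 685 of the 6798 rows (10.1%). The median difference of the members was 0.004.

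For 8 of the 9 genes that rose, the kinds differed by less than 0.1 on the log2 scale, against 38.9% of the 378 rows called higher. The test that picked these genes favours arrays that agree, so this count is a description. Mean ratios were 0.42 against no siRNA and 0.43 against control siRNA for ISG15, 0.42 and 0.43 for MX1, 0.43 and 0.42 for OAS1, and 0.47 and 0.44 for IFIT1 (whose features parted by kind, as given above), in that order of controls. For MX1, the 24 h value against no siRNA rests on 1 of its 3 features. The 95% interval of the difference was -0.39 to 0.37 for ISG15, -0.39 to 0.38 for MX1 and -0.36 to 0.41 for IFIT1. Intervals of this width also hold differences nearly as large as the responses themselves. IFI6 was the exception, with 0.68 against no siRNA and 0.35 against control siRNA (difference 0.33, 95% interval -0.09 to 0.75). These intervals rest mostly on the spread pooled over all rows, with 1 residual degree of freedom against 17.5 from the pool.

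Each kind of control was also tested by itself in the same model. Against no siRNA, IFI6, IFIT1, ISG15, OAS1, MX1 and ISG20 were called higher, 6 of 35 (7.61% of all rows). ISG20L2 and OAS2 were called lower (11.1% of all rows), and 14 members had an unadjusted p under 0.05 (33.4% of all rows). The 6 h value of OAS2 rests on 1 of its 2 features. Against control siRNA, IFIT2 at 0.48 and IFIT1 at 0.44 were called higher (2.4% of all rows) and 0 members were called lower (3.71% of all rows), with 15 members at an unadjusted p under 0.05 in either direction (24.8% of all rows). IFIT1 was the one member called in both. The member medians were 0.16 against no siRNA and 0.15 against control siRNA. With arrays centred and scaled to 1 spread, 0 members and 0 rows were called with either control, with smallest adjusted p-values over all rows of 0.081 against no siRNA and 0.109 against control siRNA (1946 and 1821 rows at an unadjusted p under 0.05).

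Some members that did not rise overall sat apart by kind. IFI35, a protein that binds NMI, had -0.18 and -0.10 at 24 h and 6 h against no siRNA, and 0.34 and 0.29 at 24 h and 8 h against control siRNA. Its arrays did not overlap, and the difference of -0.46 (95% interval -0.84 to -0.07) had an adjusted p of 0.366 in limma. IFIT2 differed by -0.38 and IRF1 by -0.34, also without overlap. Over the 35 members, the no siRNA arrays were both higher for 5 (15.6% of all rows) and both lower for 7 (19.0% of all rows), so such separation was about as common among all rows.

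**Figure D3:**
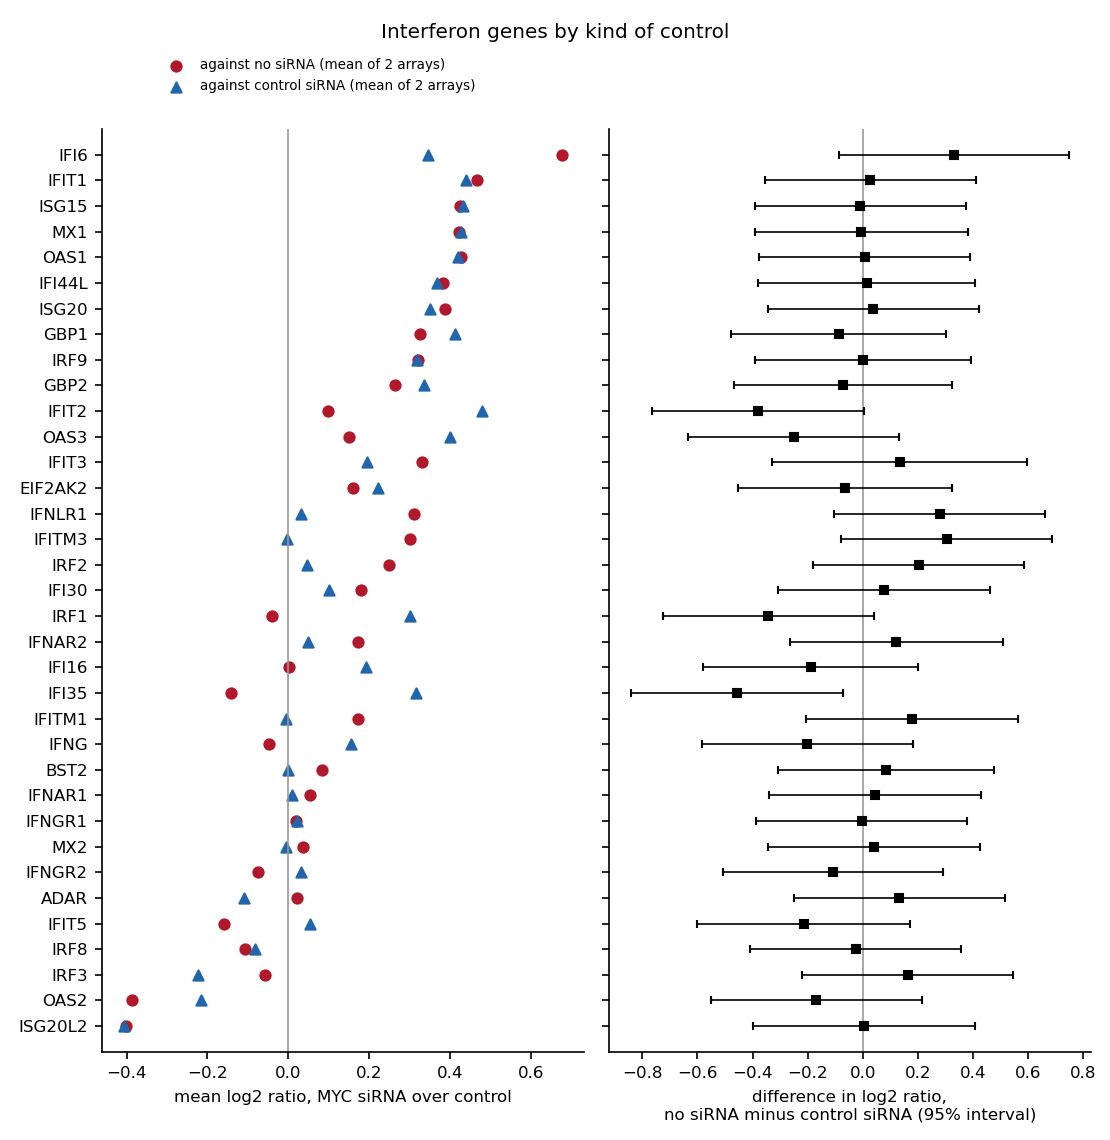
Left, mean log2 ratio (MYC siRNA over control) of the 35 fully measured interferon genes against no siRNA (red circles) and against control siRNA (blue triangles), 2 arrays each. Right, the difference between the kinds with its 95% interval from limma. For ISG15, MX1, OAS1 and IRF9 the circle and the triangle nearly coincide. The interval of IFI35 lies below 0, and its adjusted p was 0.366.

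Time after electroporation was compared between 24 h and the early arrays (6 h and 8 h), again as 1 term of the model with control kind. Of the 35 members, 0 passed, against 0.118% of all rows, and the smallest adjusted p was 0.247, for OAS2. At an unadjusted p under 0.05 there were 4 members, OAS2, ISG15, IFITM1 and GBP2, against 687 of the 6798 rows (10.1%), a share near that of the members. The median difference of the members was -0.01. With both controls alike, 12 members were lower (27.1% of all rows) and 10 were higher (27.4% of all rows) at 24 h than at the early time.

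The members with the widest differences are given as values. OAS2 averaged -0.59 at 24 h and -0.01 early (difference -0.59, 95% interval -0.97 to -0.20). Its early values average different features, and its complete feature, below 0 on all 4 arrays, differed by -0.68. ISG15 averaged 0.22 at 24 h and 0.64 early (difference -0.42, 95% interval -0.80 to -0.04). IFITM1 had -0.01 and 0.35 at 24 h and 6 h against no siRNA, and -0.22 and 0.21 at 24 h and 8 h against control siRNA (difference -0.40, 95% interval -0.78 to -0.01). GBP2 went the other way, with 0.50 at 24 h and 0.10 early (difference 0.40, 95% interval 0.01 to 0.80). OAS1 and ISG20 each differed by 0.24 with 24 h the higher, and IFIT1 by -0.04. None of these differences passed over all rows, and the adjusted p for OAS1, ISG20 and MX1 was 0.74.

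**Figure D4:**
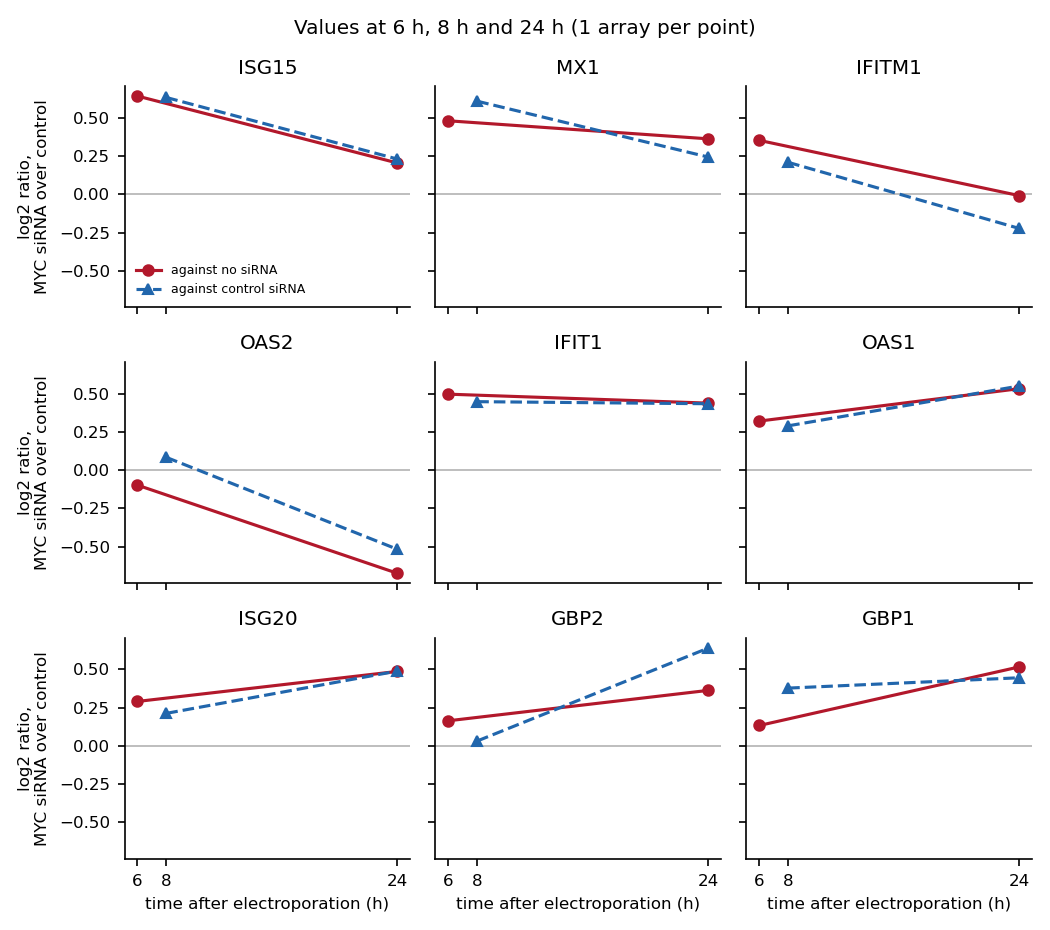
Log2 ratios (MYC siRNA over control) at 6 h, 8 h and 24 h for 9 interferon genes, picked after their values were seen. Each point is 1 array. Solid red lines join the arrays against no siRNA, and dashed blue lines those against control siRNA. ISG15 and OAS2 lie lower at 24 h with both controls, OAS1 and ISG20 lie higher, and IFIT1 lies near 0.45 as the average of 2 features that lie apart against no siRNA.

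Single features gave more calls than gene averages. Of the 90 member features complete on 4 arrays, 25 were called higher and 8 lower, against 7.09% higher and 12.3% lower of all 10161 such features (limma over single features). They belonged to 17 members with at least 1 feature higher and 7 members with at least 1 lower. Of the 25 members with several complete features, 12 had feature means of 1 sign and 13 had both signs. IFNGR1 and IFNGR2 were the 2 members with features called in both directions. ISG15, OAS1, ISG20, GBP1, IFI6 and IFIT1 had complete features with means of 1 sign, whereas IRF9 had 1 feature near 0. Of these, only ISG15 had each complete feature called higher. Of the 38 members, 9 rest on 1 feature each, IFI44, IFI44L, IFIT3, IFI35 and ISG20L2 among them.

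**Figure D5:**
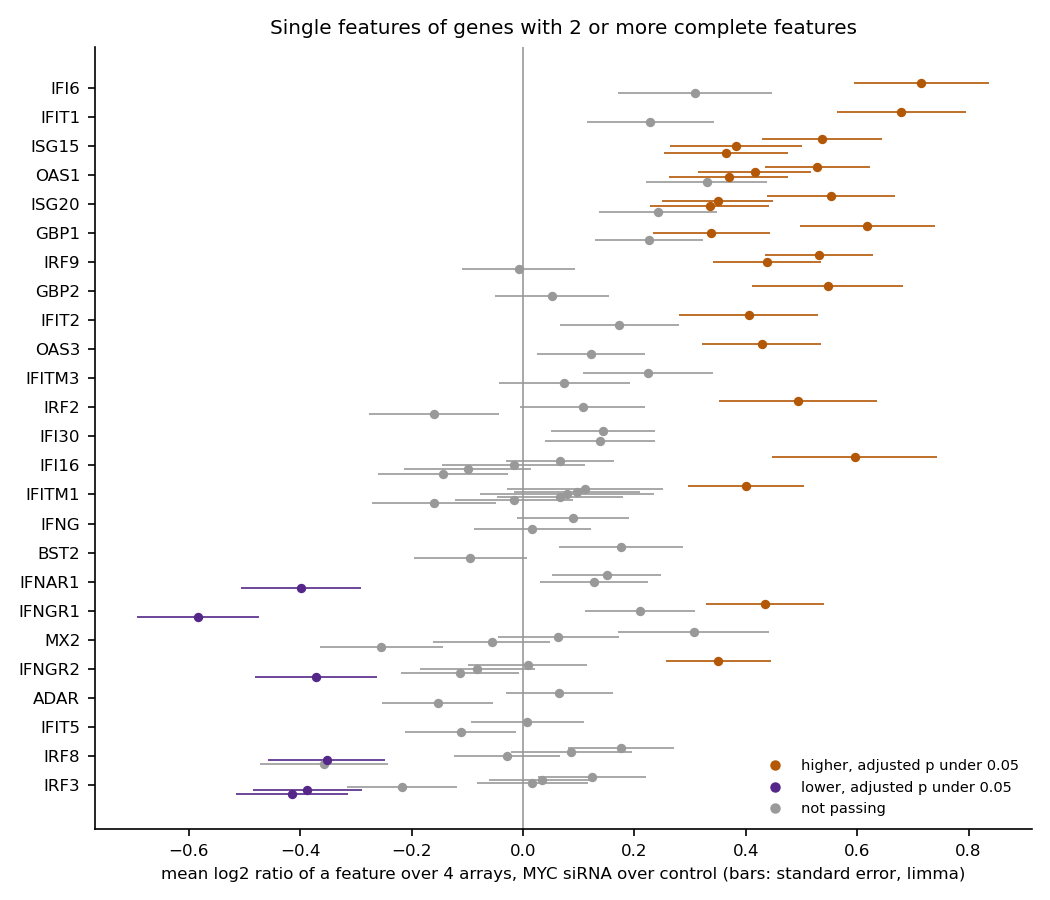
Mean log2 ratio (MYC siRNA over control, 4 arrays) of each complete feature for the 25 interferon genes with several of them. Bars are standard errors from limma. Orange features were called higher, purple ones lower, and grey ones did not pass. The 3 features of ISG15 are all orange, and IFNGR1 and IFNGR2 each hold 1 orange and 1 purple feature.

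Genes of the same pathway outside the naming rule were counted from lists. Of 40 measured other interferon-stimulated genes (78 listed), 5 rose (5.56% of all rows), 0 fell (10.2% of all rows) and 35 did not pass, with a median of 0.13 and 15 at an unadjusted p under 0.05 (35.4% of all rows). Those that rose were CMPK2, a mitochondrial nucleotide kinase (0.45 ± 0.25), TAPBP and B2M of antigen presentation by MHC class I (0.37 ± 0.12 and 0.32 ± 0.18), the peptidase LAP3 (0.32 ± 0.18) and TRIM22 (0.30 ± 0.12; SD, n = 4 each). Between kinds of control, 0 of the 40 passed in limma (0.0883% of all rows). At an unadjusted p under 0.05 there were 3 of the 40 (10.1% of all rows), so at that threshold a split by kind was no more common in this list. The 3 were XAF1, TNFSF10 and SAMD9L, each higher against control siRNA. The median difference of the list was -0.09, against -0.02 over all rows. Against control siRNA, 4 were called higher (2.4% of all rows) and 0 lower (3.71%). Against no siRNA, 2 were called higher (7.61%) and 2 lower (11.1%). XAF1, a promoter of apoptosis, had -0.43 and -0.38 at 24 h and 6 h against no siRNA, and 0.45 and 0.52 at 24 h and 8 h against control siRNA. TNFSF10, the death ligand TRAIL, had 0.09 and 0.10 against no siRNA and 0.78 and 0.85 against control siRNA, in the same order of times. In both genes the kinds lay far apart while times agreed closely, and the adjusted p of the kind difference in limma was 0.0661 for XAF1 and 0.109 for TNFSF10. SAMD9L, measured by 1 feature, had -0.66 and 0.06 at 24 h and 6 h against no siRNA, and 0.64 and 0.49 at 24 h and 8 h against control siRNA. Its kind difference was -0.86 (adjusted p = 0.103 in limma). CXCL10, a chemokine that interferon strongly induces, lay below 0 at 24 h with both controls (-0.72 against no siRNA and -0.43 against control siRNA), as did WARS1 (-0.69 and -0.79 in the same order). XAF1, TNFSF10, SAMD9L, CXCL10 and WARS1 were named after their values were seen.

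Genes of the machinery upstream were called at shares near or below those of all rows. Of 16 measured genes of nucleic acid sensing and signalling to IRFs, 0 passed for MYC siRNA over all arrays (5 at an unadjusted p under 0.05, against 35.4% of all rows), with a median of 0.04. Of 25 measured genes of JAK-STAT signalling and its inhibitors, 2 rose (5.56% of all rows), 1 fell (10.2% of all rows) and 22 did not pass, with a median of 0.06. PTPN1, a phosphatase that acts on JAK2 and TYK2, averaged 0.40 ± 0.11, and SOCS3, an inhibitor that cytokines induce, 0.36 ± 0.22. STAM, an adaptor of receptor sorting, averaged -0.52 ± 0.25 (SD, n = 4 each).

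Some cell type markers rose as well. Beside the counts stand 5.56% of all rows higher and 35.4% at an unadjusted p under 0.05. Of 9 measured mature B cell markers, 3 rose (CD72, CD79A and CD74, with means of 0.41, 0.41 and 0.37), with a list median of 0.20. The highest values of CD72 and CD79A, 0.88 and 0.805, were both at 24 h against no siRNA. The other 6 B cell markers did not pass. MS4A1 and CD22 averaged -0.06 each, BLK 0.07, PAX5 0.10, CD79B 0.20 and SPIB 0.26. Of 6 markers of plasmacytoid dendritic cells, the main makers of type I interferon in blood, LILRA4 rose (0.35), with a list median of 0.23. Of 10 T and NK cell markers 0 passed (median 0.10), and of 3 monocyte and macrophage markers 0 passed (median 0.17). At an unadjusted p under 0.05 in limma there were 5 of the 9 B cell and 3 of the 6 plasmacytoid dendritic cell markers. For the T and NK cell and the monocyte and macrophage lists there were 2 and 1. SPIB is on both the B cell and the plasmacytoid dendritic cell list. On single arrays, the medians ran from 0.11 to 0.24 for B cell markers, 0.11 to 0.31 for plasmacytoid dendritic cell markers, -0.08 to 0.25 for T and NK cell markers and -0.03 to 0.34 for monocyte and macrophage markers. Ratios do not show whether a marker was present at all, and the part of these genes in the results was not tested. In bulk RNA, a change in the share of cells that express a gene and a change in RNA per cell cannot be told apart.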

How the data were processed

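Arrays with 2 channels, of 1 human lymphoma line, were analysed from the authors' deposited log2 ratios, 1 value per feature and array. Dyes, siRNA, controls and times were taken per the labels' protocols. No source used here states the log base, direction, background correction or normalization, and base 2 and MYC siRNA over control were inferred from the values and the dyes. Signal over background is unknown. Of 15154 features, 10165 had 1 gene symbol in the platform annotation, 4 had several and were not named, and 4985 had none. Entrez IDs matched RefSeq (GRCh38.p14) for 10124. The mean of a gene's features present on an array was used, which gave 6798 rows complete on 4 arrays, 3954 of them named genes.

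Ratios were tested with limma 3.58.1 (lmFit and eBayes) in R 4.3.3, with Benjamini-Hochberg adjustment over all complete rows and a threshold of 0.05. The mean over arrays was tested against 0 with 3 residual and 6.31 prior degrees of freedom. Control kind and time (24 h, early) were terms of a second model, with 1 residual and 17.5 prior degrees of freedom. The median standard error was 0.0951 for the mean and 0.185 for each difference, and the number of arrays limits this precision. Array medians lay between -0.04 and 0.01. Alternatives were centring, scaling, single features, complete features before averaging, robust moderation, rows on at least 2 arrays, other terms, and leaving out each array. The code was tested on simulated data.

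Members, gene lists and tests were chosen with earlier results of these data known. Named genes were members called in any comparison, the 5 highest and 5 lowest means, members of role groups of 3 or fewer, those on fewer than 4 arrays, and, of other lists, called genes and the 3 furthest in the direction of the list's median. Further members are named to account for the set. Start regions were not at hand for GBP2, IFIT2, IFNW1, IRF2, IFNAR2, MX2, IRF3 and OAS2.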

Additional observations from a re-analysis of the deposited data

Results flagged for a closer look

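One feature of IFITM1, an interferon-induced membrane protein, differed between times by the test of that difference itself. Its log2 ratio (MYC siRNA over control) was 0.83 lower at 24 h than at the early time (difference -0.83, adjusted p = 0.0454 in limma over single features). The feature had -0.26 and 0.53 at 24 h and 6 h against no siRNA, and -0.42 and 0.46 at 24 h and 8 h against control siRNA, so it lay below 0 at 24 h and above 0 early with both controls. It was 1 of 7 complete features of the gene. The other features gave differences of -0.66 to -0.14 and did not pass, and the gene average of -0.40 did not pass either (adjusted p = 0.47). No explanation was tested.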

How the results depend on the processing

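The median of the members for MYC siRNA stayed between 0.12 and 0.17 under every alternative run. Centring, scaling, robust moderation, rows on at least 2 arrays and complete features before averaging gave 9 or 10 members higher and 1 lower. With rows on at least 2 arrays, IFI44 came in (adjusted p = 0.024 in limma) and IRF9 was lost (adjusted p = 0.0548). Single features gave 17 members higher and 7 lower and 1971 features called, against 1073 rows with gene averages. With control kind and time as terms, 12 members were higher and 2 lower and 1980 rows were called, since GBP2, IFIT2, OAS3 and OAS2 passed as well. OAS3 also passed with scaled arrays (adjusted p = 0.0482 in limma). The mean of IFNAR1 turned to -0.041 with complete features before averaging, and that of IFNGR2 to 0.016 with scaled arrays.

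Leaving out 1 array at a time left 0 to 3 members higher, 0 lower and 0 to 441 rows called for MYC siRNA. The 0 rows, without the 6 h array, came with a smallest adjusted p of 0.053 in limma and 2179 rows at an unadjusted p under 0.05. Fewer arrays also leave fewer degrees of freedom. Means near 0 changed sign in such fits, and ran from -0.018 to 0.13 for BST2, -0.10 to 0.0037 for IFIT5, -0.0070 to 0.18 for IFITM1, -0.069 to 0.062 for IFNGR2 and -0.0023 to 0.045 for MX2. The labels give no replicate numbers, so no replicate block was fitted, and control kind and time entered as terms instead.

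Between kinds of control, 0 members passed under every alternative run, and rows called numbered 6 as tested, 89 with centred arrays, 0 with scaled arrays, 57 with single features, 37 with complete features before averaging, 0 with control kind as the only term and 1 to 26 with 1 array left out. The member median then ran from -0.030 to 0.054. Between times, rows called numbered 8 as tested, 61 with centred arrays, 0 with scaled arrays, 74 with single features, 26 with complete features before averaging, 5 with robust moderation, 0 with time as the only term and 0 to 3 with 1 array left out. Single features gave 1 member lower at 24 h, IFITM1, and the member median was -0.081 with scaled arrays, against -0.013 as tested. Centred arrays gave infinite prior degrees of freedom in this model, so each row then took the pooled spread.

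Against no siRNA, 15 members were higher and 6 lower with single features (2320 features called), 0 lower with centred arrays, and 0 higher, 0 lower and 0 rows called with scaled arrays, against 6 higher, 2 lower and 1274 rows as tested. Against control siRNA, 9 members were higher and 2 lower with single features (796 features called), 5 higher with complete features before averaging, 1 higher with robust moderation, and 0 higher and 0 rows called with scaled arrays, against 2 higher, 0 lower and 415 rows as tested. The cause of these shifts was not tested.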
